A study of Homo sapiens with 6 samples.

Results

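TXNIP (thioredoxin-interacting protein), 4 other alpha-arrestin genes (ARRDC1, ARRDC2, ARRDC3 and ARRDC4) and the glucose-sensing transcription factor genes MLXIP (MondoA) and MLXIPL (ChREBP) were followed in A2780 cells, a human ovarian cancer cell line. These were 7 of the 44591 genes that the count files list, and all 7 were among the 16222 genes with enough counts to be tested. The genes were chosen by family and by name after their counts in these same libraries were known. Their differences between the groups are therefore given as a description without p-values, and the count of members past each threshold supports nothing. A group of 3 libraries came from untreated A2780 cells and a group of 3 from A2780 cells given human recombinant CRMP2 (r-CRMP2) at 40 ng/ml, each with a time of 48 h in its label. The comparison asks which transcripts differ in ovarian cancer cells when CRMP2 is supplied from outside the cell. The cells were labelled wild type and were grown in DMEM with serum, and r-CRMP2 was added to that medium. A control protein is not among the samples, so r-CRMP2 cannot be told apart from anything else that came with the addition. The labels do not say that the replicates were separate cultures, so the spread between them may be technical.

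Alpha-arrestins share the arrestin fold of the better known beta-arrestins and act as adaptors that bring membrane proteins to ubiquitin ligases of the NEDD4 family, after which the cargo is internalised. TXNIP also binds and inhibits thioredoxin, and it lowers glucose uptake by promoting removal of the transporter GLUT1 from the cell surface. MondoA and ChREBP sense phosphorylated sugars, pair with MLX and bind carbohydrate response elements, and TXNIP and ARRDC4 are their classic target genes.

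Totals were between 21888530 and 25711353 counts per library, and sampling noise alone did not account for the spread among replicates (chi-square per degree of freedom between 3.86 and 11.3). Levels are given as normalised CPM, which adjust each library's counts for its total and its TMM factor, or as the TPM values the authors deposited. TPM divide counts by gene length and scale them to each library's total, with no TMM factor. The TMM factors ran from 1.10 to 1.12 in untreated and from 0.879 to 0.922 in r-CRMP2 libraries, so the scaling moved every fold change. Over all genes tested the log2 fold change had a median of -0.03 under TMM, which moved to -0.34 when libraries were scaled by their totals only (called library size alone here). Of the markers checked, KRT8 and KRT18 (epithelial keratins) lay between 1061 and 2024 TPM, EPCAM between 5.43 and 7.39 TPM and PAX8 between 1.41 and 2.65 TPM, and the adhesion gene CDH1 had 0 to 5 counts. The summed TPM of 5 epithelial markers was 3318 to 3426 in untreated and 2818 to 3069 in r-CRMP2 libraries. That of 5 fibroblast markers was 194 to 229 and 129 to 140, respectively, most of it from COL1A1. These TPM sums carry no TMM factor. With TMM the log2 fold changes were 0.03 for KRT8, 0.20 for KRT18, 0.32 for EPCAM and -0.11 for PAX8. Those of the fibroblast markers were -0.41 for both COL1A1 and PDGFRB, 0.35 for COL1A2, 0.29 for DCN and 0.53 for LUM. Over 4 leukocyte or endothelial markers the sums were 28.5 to 33.8 and 77.7 to 78.5 TPM, almost all from CD68, while PTPRC had 0 to 4 counts. With TMM the log2 fold change of CD68 was 1.69. Those of PECAM1 (-1.41) and VWF (-0.45) rested on 0 to 29 and 0 to 17 counts in a library. The part of these markers in the members' values was not tested. In bulk RNA, a lower level in every cell and fewer cells with the transcript cannot be told apart.

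The promoters of the 7 genes were searched because Mondo proteins bind pairs of E-box-like motifs and HIF binds the hypoxia response element. RefSeq promoters (GRCh38.p14, 250 bases before to 50 bases after an annotated start) were found for all 7 members, 10 promoters in all, since TXNIP, ARRDC2 and ARRDC3 have 2 starts each. The motifs sought, on both strands, were the E-box CACGTG and ACGTG, a form of the hypoxia response element core that every CACGTG contains. Also sought were 2 copies of CACG separated by 7 bases, the spacing of a carbohydrate response element. These motifs, in that order, were present in 7.26%, 21.4% and 0.609% of 35116 promoters of the same length. The paired CACG motif was found once among the members, upstream of the first TXNIP start, from base -88 to base -74. ARRDC4 held the only CACGTG, from base -210 to base -205, and the second TXNIP start held an ACGTG from base -162 to base -158. None of the motifs sought was found in the windows of ARRDC1, ARRDC2, ARRDC3, MLXIP or MLXIPL, which says nothing about sites elsewhere. Other forms of the hypoxia response element core, such as GCGTG, were not sought, so their absence is not shown. The TXNIP sequence is chr1:145996580-145996829 (minus strand in GRCh38.p14, whereas the deposited hg19 position is on the plus strand) and the ARRDC4 sequence is chr15:97960453-97960702 (plus strand). Both run 5′ to 3′ up to the base before the start, and capitals mark the matched bases.
TXNIP: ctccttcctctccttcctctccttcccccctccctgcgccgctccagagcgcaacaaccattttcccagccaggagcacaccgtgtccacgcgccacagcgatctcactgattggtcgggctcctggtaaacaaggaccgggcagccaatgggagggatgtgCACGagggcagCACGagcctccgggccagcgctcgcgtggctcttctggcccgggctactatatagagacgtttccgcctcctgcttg
ARRDC4: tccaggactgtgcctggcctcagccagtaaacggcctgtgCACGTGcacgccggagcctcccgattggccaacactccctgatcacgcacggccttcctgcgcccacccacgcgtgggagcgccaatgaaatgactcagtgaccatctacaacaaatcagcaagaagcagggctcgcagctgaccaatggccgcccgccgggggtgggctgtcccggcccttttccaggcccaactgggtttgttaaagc
A match is a description of letters and not of binding.

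**Figure D1:**
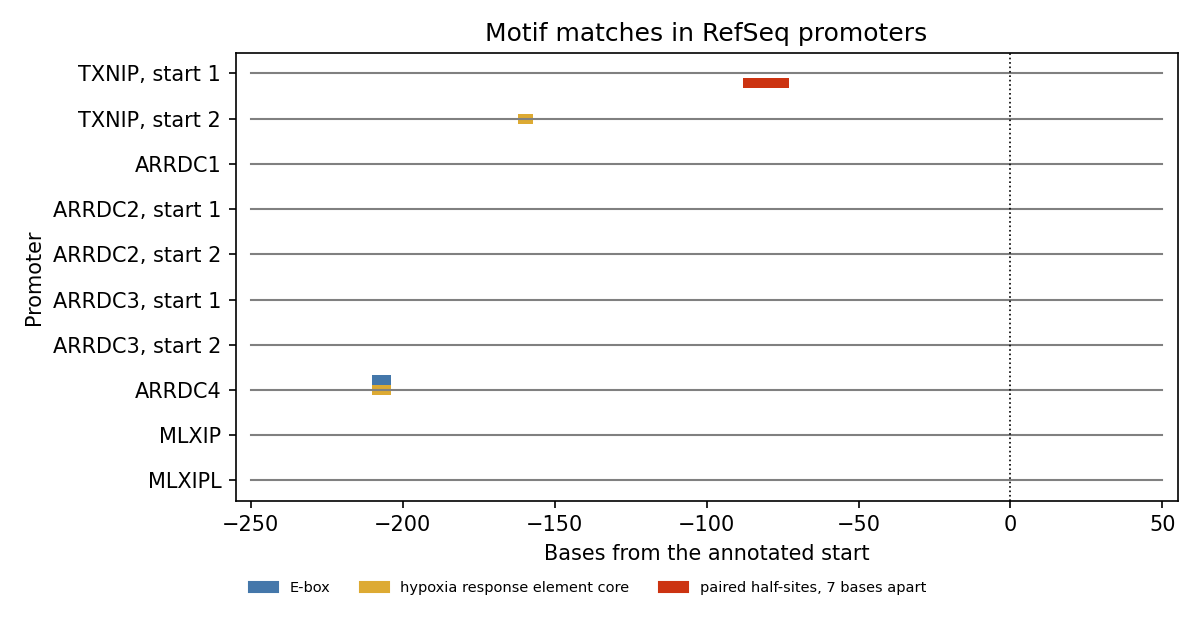
Motif matches in the 10 RefSeq promoters of the 7 genes, by distance in bases from the annotated start (dotted line). Matches were found at TXNIP and ARRDC4 only, the paired motif between bases -88 and -74 of the first TXNIP start.

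TXNIP and ARRDC3 were the members that stood highest with r-CRMP2 relative to untreated cells, by 1.99-fold and 3.51-fold. ARRDC4 differed little and in a direction that depended on the scaling, and both Mondo genes were lower in all 3 r-CRMP2 libraries. ARRDC1 and ARRDC2 overlapped between the groups in normalised CPM, but in TPM, without a TMM factor, both were lower in every r-CRMP2 library. TXNIP (chromosome 1, 145438438 to 145442644, plus strand in the deposited hg19 coordinates, the build of every gene position given here) was at 242, 253 and 250 normalised CPM in untreated replicates 1, 2 and 3. It was at 510, 538 and 432 normalised CPM in r-CRMP2 replicates 1, 2 and 3. Every r-CRMP2 library lay above every untreated one, with r-CRMP2 replicate 3 the lowest of its group. The means were 248 ± 5.81 and 493 ± 55.4 normalised CPM (SD, n = 3 each). The log2 fold change of TXNIP was 0.99 (standard error 0.10), just under the threshold of 1 that the study used. It was over 1 in 4 of 12 alternatives, namely RLE size factors (1.01), DESeq2 (1.01), without untreated replicate 2 (1.01) and without r-CRMP2 replicate 3 (1.08), and it was 0.68 with library size alone. Between 6204 and 10904 counts per library lay behind these values. By log2 fold change TXNIP ranked at place 855 from the top of the 16222 genes tested.

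ARRDC3 is an adaptor for cargo that includes the integrin ITGB4. The gene (chromosome 5, 90664449 to 90679190, minus strand) was at 72.4, 80.2 and 68.6 normalised CPM in untreated replicates 1, 2 and 3. In r-CRMP2 replicates 1, 2 and 3 it was at 221, 282 and 272 normalised CPM. The groups were far apart, and r-CRMP2 replicate 1 was the lowest of its group, where for TXNIP it was replicate 3. The log2 fold change of ARRDC3 was 1.81 (standard error 0.13), from means of 73.7 ± 5.94 to 259 ± 32.8 normalised CPM (SD, n = 3 each), and it was 1.50 with library size alone. It ranked at place 237 from the top. An antisense gene, ARRDC3-AS1, covers 3027 bases of the ARRDC3 locus and had 12 to 35 counts in a library, against 1876 to 6252 for ARRDC3.

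ARRDC4 (chromosome 15, 98503933 to 98517068, plus strand) was at 18.7, 20.3 and 18.1 normalised CPM in untreated replicates 1, 2 and 3 and at 23.5, 22.6 and 21.1 in r-CRMP2 replicates 1, 2 and 3. These groups did not overlap, but the log2 fold change was 0.23 (standard error 0.07), and its direction turned with library size alone (-0.08). In TPM the ARRDC4 groups overlapped, at 10.9 to 12.3 in untreated and 10.2 to 11.7 in r-CRMP2 libraries. On the TMM scale the classic Mondo targets TXNIP, with the paired CACG motif, and ARRDC4, with CACGTG alone, were 1.99-fold and 1.18-fold higher. ARRDC3, with no match in either window, was 3.51-fold higher. A link between a motif match and these differences was not tested.

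ARRDC1 drives the budding of vesicles from the plasma membrane with the ESCRT protein TSG101. The gene (chromosome 9, 140500092 to 140509812, plus strand) was at 21.4, 25.0 and 21.2 normalised CPM in untreated and at 18.9, 22.8 and 20.1 in r-CRMP2 replicates 1, 2 and 3. The groups overlapped on this scale, with a log2 fold change of -0.13 (standard error 0.11) that was -0.44 with library size alone. In TPM the ARRDC1 groups did not overlap, at 30.6 to 36.8 in untreated and 22.9 to 25.1 in r-CRMP2 libraries. An antisense gene, ARRDC1-AS1, overlaps the end of ARRDC1 by 29 bases. It had 368 to 468 counts in untreated and 222 to 249 in r-CRMP2 libraries, so reads at that end cannot be assigned without strand. ARRDC2 (chromosome 19, 18111941 to 18124911, plus strand) was at 22.4, 23.5 and 20.3 normalised CPM in untreated and at 22.4, 20.1 and 21.5 in r-CRMP2 replicates 1, 2 and 3. Its log2 fold change was -0.05 (standard error 0.08), smaller than the standard error, and it was 0.0011 without r-CRMP2 replicate 2 and -0.36 with library size alone. In TPM the ARRDC2 groups did not overlap, at 16.9 to 19.7 in untreated and 12.6 to 15.4 in r-CRMP2 libraries. Of its 100-base words, 6.51% also occur in AC020904.3 on the opposite strand, so a share of its reads is uncertain.

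MLXIP, which encodes MondoA (chromosome 12, 122516634 to 122631894, plus strand), was at 143, 149 and 145 normalised CPM in untreated replicates 1, 2 and 3. It was at 125, 113 and 133 normalised CPM in r-CRMP2 replicates 1, 2 and 3, all below the untreated libraries. The log2 fold change of MLXIP was -0.24 (standard error 0.07), and -0.55 with library size alone. MLXIPL, which encodes ChREBP (chromosome 7, 73007524 to 73038873, minus strand), was near the bottom of what the depth could measure, with 49, 58 and 58 counts in untreated and 36, 32 and 29 counts in r-CRMP2 replicates 1, 2 and 3. On the CPM scale this was 1.76, 2.36 and 2.12 against 1.69, 1.62 and 1.26, with no overlap between the groups but a gap smaller than the spread within them. The log2 fold change of MLXIPL was -0.45 (standard error 0.17), and -0.76 with library size alone.

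**Figure D2:**
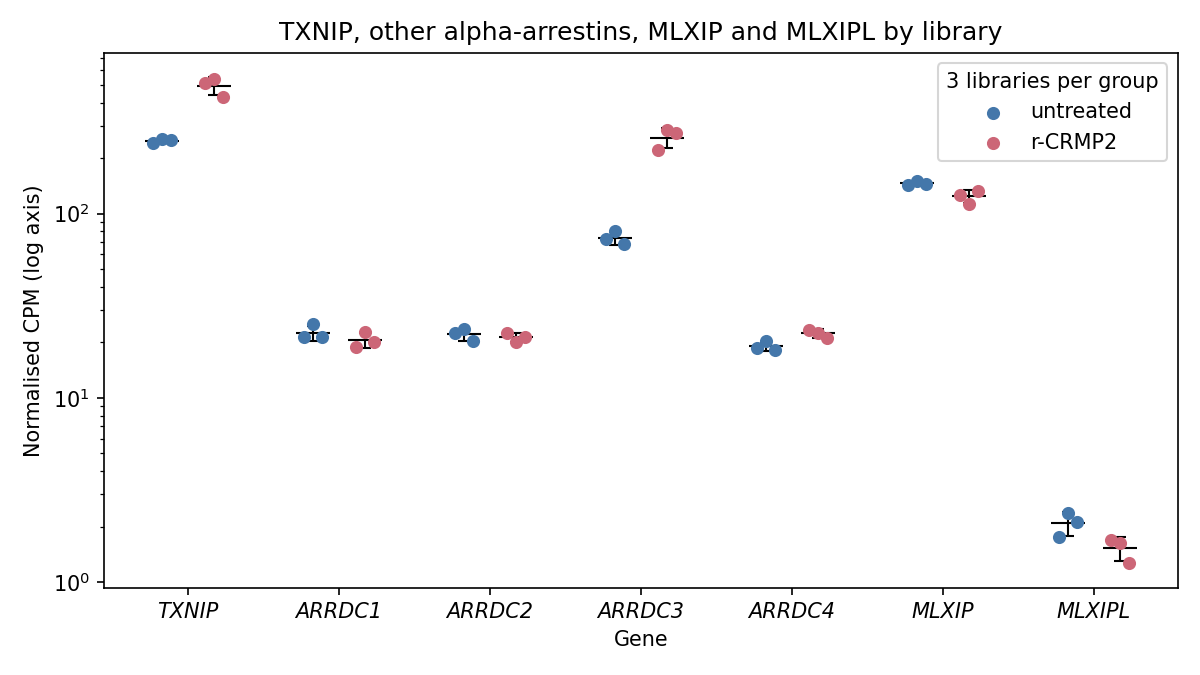
Normalised CPM (log axis) of the 7 genes in 3 untreated (blue) and 3 r-CRMP2 (red) libraries, with 1 point per library and black bars for the mean and SD. TXNIP (242 to 253 against 432 to 538) and ARRDC3 (68.6 to 80.2 against 221 to 282) are well separated, while ARRDC1 and ARRDC2 overlap.

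Of the 7 members, 3 were higher in all r-CRMP2 than in all untreated libraries (TXNIP, ARRDC3 and, with TMM but not in TPM, ARRDC4) and 2 were lower in all (MLXIP and MLXIPL). Of the genes tested, 30.9% were higher in this sense and 33.3% lower with TMM. In TPM, ARRDC1 and ARRDC2 were also lower in all r-CRMP2 libraries, and no share over all genes was computed on that scale. ARRDC3 was the 1 member past both thresholds of the study, an adjusted p under 0.05 and an absolute log2 fold change over 1. In all, 5.12% of the genes tested passed both as higher and 8.86% as lower. With the adjusted p alone, 3 members passed as higher (TXNIP, ARRDC3 and ARRDC4) and 1 as lower (MLXIP), where 28.2% of the genes tested passed as higher and 30.1% as lower. The members were chosen with this contrast known, and nothing is read from these counts. Scaling by library size alone turned the split of genes past both thresholds from 831 higher and 1437 lower to 489 and 2553.

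**Figure D3:**
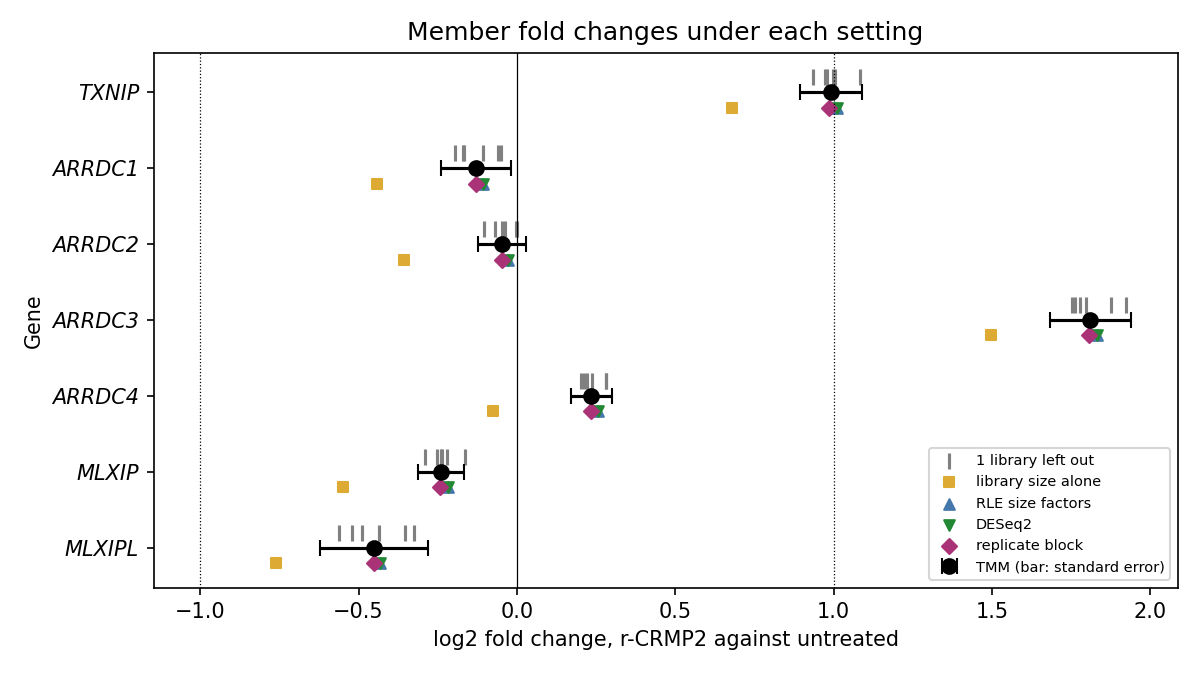
Log2 fold change of the 7 genes, r-CRMP2 against untreated, with TMM scaling (black, bar for the standard error) and under the alternatives; dotted lines mark -1 and 1. Library size alone (yellow squares) lies to the left for every gene, taking TXNIP from 0.99 to 0.68, ARRDC3 from 1.81 to 1.50 and ARRDC4 from 0.23 to -0.08.

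Ratios between members within a library do not depend on the scaling. There were 13.0, 12.5 and 13.8 TXNIP counts per ARRDC4 count in untreated replicates 1, 2 and 3, and 21.8, 23.8 and 20.4 in r-CRMP2 replicates 1, 2 and 3. For ARRDC3 per ARRDC4 the ratios were 3.88, 3.95 and 3.78 in untreated and 9.43, 12.5 and 12.9 in r-CRMP2 libraries. Both ratios were higher in every r-CRMP2 library, with any scaling. TXNIP per ARRDC3 went the other way, from 3.34, 3.15 and 3.65 to 2.31, 1.91 and 1.58, lower in every r-CRMP2 library, so the difference in ARRDC3 was the larger one whatever the scaling. TXNIP per MLXIP was 1.69, 1.69 and 1.72 in untreated and 4.07, 4.78 and 3.24 in r-CRMP2 libraries. Its untreated values were nearly equal, while the r-CRMP2 values were widely spread. MLXIP per MLXIPL overlapped between the groups, at 63.2 to 81.2 in untreated and 69.6 to 105 in r-CRMP2 libraries.

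Per gene length, TXNIP was the most abundant member in both groups, at 188 ± 7.19 TPM in untreated and 298 ± 30.6 TPM in r-CRMP2 cells (SD, n = 3 each). In untreated cells MLXIP followed at 42.3 ± 1.52 TPM, then ARRDC3 at 34.7 ± 3.10 TPM and ARRDC1 at 32.8 ± 3.46 TPM. The ranges of ARRDC3 and ARRDC1 overlapped, so these neighbours were not separated. ARRDC2 at 18.3 ± 1.41 TPM, ARRDC4 at 11.4 ± 0.787 TPM and MLXIPL at 1.55 ± 0.247 TPM followed, each separated from the next. In r-CRMP2 cells ARRDC3 stood second, at 96.7 ± 9.01 TPM, above MLXIP at 28.6 ± 3.43 TPM and ARRDC1 at 23.9 ± 1.17 TPM, which overlapped. The order of ARRDC2 (14.1 ± 1.39 TPM), ARRDC4 (10.7 ± 0.837 TPM) and MLXIPL (0.902 ± 0.142 TPM) was as in untreated cells. The MondoA gene was the main Mondo transcript in these cells, and the last alpha-arrestin of the family, ARRDC5, had 0 to 2 counts in a library.

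The genes whose profile over the 6 libraries lay nearest to that of TXNIP, among 12720 genes with a mean normalised count of at least 50, were COL6A1, HLA-F and LOC100506548. Their root mean square distances from TXNIP were 0.04, 0.08 and 0.08 on the log2 CPM scale, after centring on the untreated mean. This distance includes the difference between the groups, so near genes have a similar log2 fold change (1.03, 0.96 and 0.98, respectively). Shared control of genes with near profiles was not tested. Nearest to ARRDC4 were SPEG, STRN3 and FGFR1OP, at distances of 0.03, 0.03 and 0.04. Nearest to ARRDC3, a choice made after the values were seen, were SNORA8, PPP1R3C and PIM3, at 0.05, 0.08 and 0.08. PPP1R3C, a glycogen-targeting phosphatase subunit, had a mean of 62.0 normalised CPM in untreated and 210 in r-CRMP2 libraries. SNORA8 is a small nucleolar RNA gene with few reads, at 1.80 and 6.81 normalised CPM.

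The genes around the members were taken from 8 lists chosen with earlier results of these data known, so nothing is read from their shares. The lists of partners, targets and cargo held 75 genes in all, of which 61 passed the low-count filter. With edgeR and p-values adjusted over all genes tested, 6 passed both thresholds as higher (9.84%) and 2 as lower (3.28%), against 5.12% and 8.86% of all genes. Their median on the log2 scale was -0.03, beside -0.03 for all genes tested. With the adjusted p alone and TMM, 20 of these list genes passed as higher and 15 as lower, where 28.2% and 30.1% of all genes tested passed. Scaling by totals only gave 11 and 36 list genes. No matching share of all genes is given for that scaling, which moved the median of all genes tested to -0.34. The 36 lower genes are therefore not read as a property of the lists. By list, the median log2 fold change was 0.09 for the MLX partners, 0.10 for the ChREBP and MondoA targets, 0.04 for the thioredoxin system, -0.12 for the NEDD4 family, 0.05 for other arrestin-fold genes, -0.07 for AMPK subunits, 0.21 for cargo and sorting partners and -0.18 for inflammasome partners.

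Among the factors that pair with MLX, MXD1, a repressor of the MAX network, rose most. It was at 11.5, 9.49 and 10.2 normalised CPM in untreated and at 65.8, 75.3 and 77.1 in r-CRMP2 libraries, or 2.81 on the log2 scale (edgeR adjusted p = 3.83e-14, standard error 0.11). MXD4, a related repressor, fell from 72.0 ± 5.59 to 45.0 ± 1.31 normalised CPM (SD, n = 3 each), or -0.68 on the log2 scale (edgeR adjusted p = 1.41e-07). MLX itself was 0.29 higher on the log2 scale (edgeR adjusted p = 6.85e-04) and its direction turned to -0.02 with library size alone. MNT did not pass the test with TMM (log2 fold change -0.11) and passed the adjusted p as lower with library size alone (-0.42).

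Of 20 textbook targets of ChREBP and MondoA, 13 were tested, and 3 passed both thresholds as higher (23.1%) and 1 as lower (7.69%). Among all genes tested these shares were 5.12% and 8.86%. The list was chosen with earlier results of these data known, and nothing is read from its shares. HK2, which phosphorylates glucose, rose from 241 ± 18.1 to 877 ± 27.9 normalised CPM (log2 fold change 1.86, edgeR adjusted p = 1.09e-13). From the same RNA-seq, the study placed HK2 downstream of HIF-1 signaling. Which factor the rise of HK2 goes with was not tested. KLF10, a transcriptional repressor, rose by 1.41 on the log2 scale (standard error 0.10), from 84.8 ± 4.45 to 226 ± 24.3 normalised CPM (edgeR adjusted p = 1.73e-11). SCD, the stearoyl-CoA desaturase, rose from 443 ± 13.6 to 1038 ± 47.3 normalised CPM (log2 fold change 1.23, edgeR adjusted p = 9.24e-12), and with library size alone its value of 0.92 was under the threshold of 1. ACACB, an acetyl-CoA carboxylase, fell from 18.9, 21.4 and 21.6 to 9.55, 7.68 and 7.01 normalised CPM (log2 fold change -1.35, edgeR adjusted p = 1.05e-08). FASN, the fatty acid synthase, fell by 0.55 on the log2 scale, and ACLY (0.10) and ELOVL6 (-0.19) did not pass the test with TMM. With library size alone ACLY turned to -0.21 and ELOVL6 was at -0.50, and both passed the adjusted p of edgeR as lower. ACACA, the other acetyl-CoA carboxylase, passed the adjusted p as higher with TMM (0.22) and turned to -0.09 with library size alone. With the adjusted p alone 6 targets were higher and 3 lower, beside 28.2% and 30.1% of all genes tested, among them PNPLA3 (0.56), TKT (0.43), an enzyme of the pentose phosphate pathway, and KHK (-0.73), which phosphorylates fructose. The 7 targets left out by the filter, THRSP, FGF21 and RGS16 among them, had at most 9 counts in any library.

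None of the 13 thioredoxin system genes passed both thresholds in edgeR with TMM or in DESeq2, while edgeR with library size alone gave 2 as lower, TXNRD1 (-1.15) and SRXN1 (-1.01). At an unadjusted p under 0.05, edgeR with TMM gave 5 higher and 4 lower, where 29.8% of all genes tested were higher and 32.2% lower. TXN, the thioredoxin that TXNIP inhibits, was at 177 ± 9.70 normalised CPM in untreated and 183 ± 15.7 in r-CRMP2 cells, a log2 fold change of 0.04 that did not pass the test. With library size alone TXN was at -0.27 and passed the adjusted p of edgeR as lower. TXNRD1, the cytosolic thioredoxin reductase, fell from 560 ± 4.58 to 313 ± 19.9 normalised CPM (log2 fold change -0.84, edgeR adjusted p = 1.67e-09). SRXN1, the sulfiredoxin, fell by 0.70 on the log2 scale and TXNRD3 by 0.37. The peroxiredoxins PRDX2 and PRDX4 rose by 0.66 and 0.80 on the log2 scale. PRDX5 (0.19) and MAP3K5 (0.23), also past the adjusted p, turned direction with library size alone.

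None of the 9 NEDD4 family ligases, the partners of the arrestin tails, passed both thresholds in edgeR with TMM or in DESeq2, while edgeR with library size alone gave 1 as lower, HECW1 (-1.06). At an unadjusted p under 0.05, edgeR with TMM gave 3 higher and 3 lower, beside the same 29.8% and 32.2% of all genes. With the adjusted p, SMURF2 (log2 fold change -0.55), WWP2 (-0.27) and HECW1 (-0.76) were lower. HECW1 had few reads, 17 to 81 counts in a library, and a standard error of 0.37. NEDD4 (0.24) and NEDD4L (0.30) were higher with TMM and turned direction with library size alone (-0.06 and -0.01). Among the other arrestin-fold genes, 5 of 8 were tested, and ARRB1, which encodes a beta-arrestin, fell. It was at 45.3, 44.4 and 45.9 normalised CPM in untreated and at 20.6, 15.1 and 14.2 in r-CRMP2 libraries, or -1.44 on the log2 scale (edgeR adjusted p = 1.08e-09, standard error 0.17). ARRB2, the other beta-arrestin, had a log2 fold change of 0.17 (edgeR adjusted p = 0.045) that turned to -0.14 with library size alone.

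Of the cargo and sorting partners, all 8 were tested and 1 passed both thresholds. SLC2A1, which encodes the TXNIP cargo GLUT1, rose from 384, 339 and 299.7 to 1216, 1451 and 1497 normalised CPM in replicates 1, 2 and 3, or 2.02 on the log2 scale (edgeR adjusted p = 1.36e-12, standard error 0.14). In both TXNIP and SLC2A1 every r-CRMP2 library was above every untreated one. ITGB4, a cargo of ARRDC3, rose by 0.88 on the log2 scale (edgeR adjusted p = 1.79e-08), and the insulin receptor gene INSR by 0.41, a call that was lost with library size alone (0.10, edgeR adjusted p = 0.193). TSG101 and VPS4A, partners of ARRDC1 in vesicle budding, fell by 0.27 and 0.21 on the log2 scale.

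AMPK phosphorylates TXNIP and so marks it for degradation. Of the 7 subunit genes 6 were tested, and PRKAB2, a scaffold subunit, rose from 27.0 ± 1.12 to 77.8 ± 6.81 normalised CPM (log2 fold change 1.52, edgeR adjusted p = 7.77e-12). With the adjusted p alone PRKAG2 was higher (log2 fold change 0.45) and PRKAA2 lower (-0.31), while the catalytic subunit PRKAA1 did not pass the test (-0.11). With library size alone the PRKAG2 call was lost (0.14, edgeR adjusted p = 0.324) and PRKAA1 passed the adjusted p as lower (-0.42). Of the inflammasome partners 3 of 6 were tested and none passed both thresholds in edgeR or in DESeq2, with library size alone included. There was 1 lower gene, NEK7 (-0.24), at an unadjusted and an adjusted p under 0.05. NLRP3, the sensor that TXNIP is known to bind, had 0 to 3 counts in a library.

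**Figure D4:**
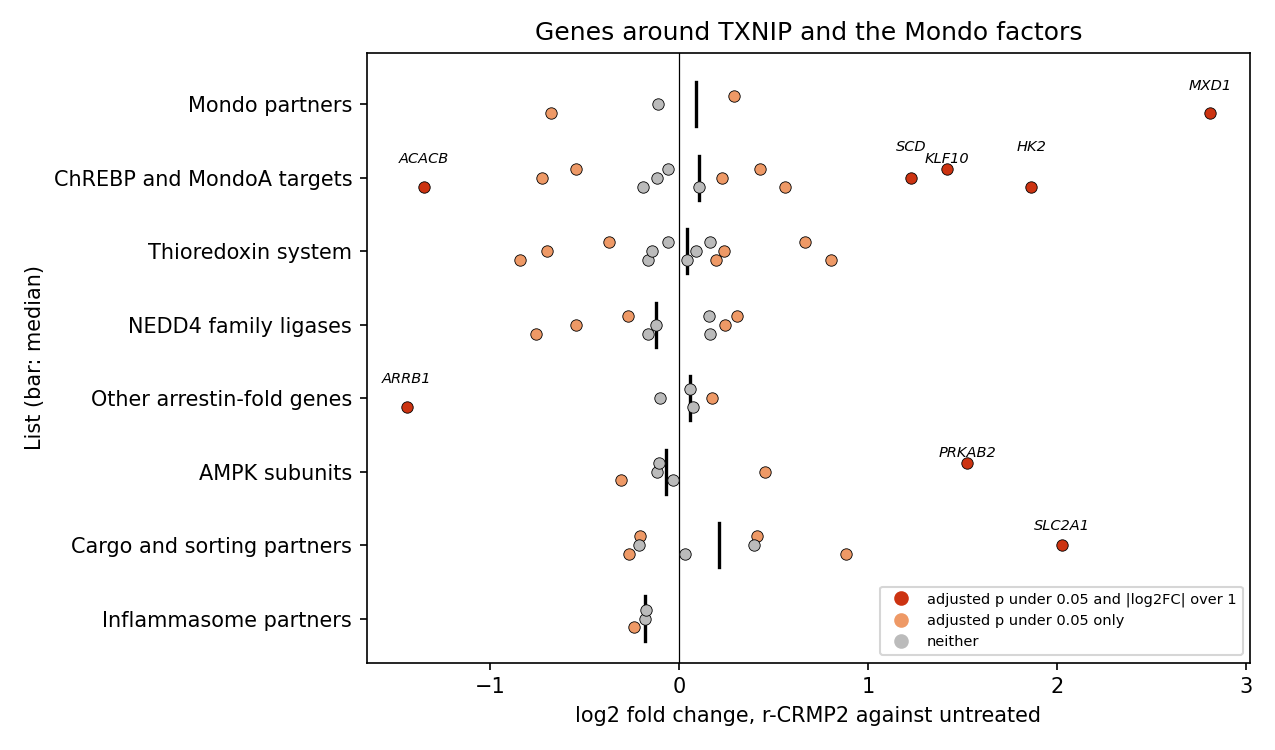
Log2 fold change of the 61 genes tested in 8 lists, r-CRMP2 against untreated, with 1 point per gene, a black bar for the median of each list, and the 8 genes past both thresholds named. MXD1 (2.81), SLC2A1 (2.02) and HK2 (1.86) lie farthest to the right and ARRB1 (-1.44) and ACACB (-1.35) farthest to the left.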

How the data were processed

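Poly(A)-selected RNA of A2780 cells was sequenced on an Illumina instrument, per the study's methods. For each of 6 libraries the authors deposited counts per gene without normalization, together with TPM values. Recomputing TPM from counts and gene lengths gave values no further than 4.72e-06 from the deposited ones. The submitters' processing notes name FastQC, HISAT2, DESeq2 and the build hg19. The counting tool, annotation and use of strand are not given in the sources used here. Of the names listed, 27 had become dates and were kept.

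TMM factors and filterByExpr were applied to the deposited counts in edgeR 4.0.16 (R 4.3.3, with limma 3.58.1), and the quasi-likelihood test was run over all 16222 genes that remained, with Benjamini-Hochberg adjustment. Thresholds were an adjusted p of 0.05 and a log2 fold change of 1, as the study's methods state. Standard errors come from log2 CPM (prior count 2). The procedure was tested on simulated data. The members and lists were chosen with earlier results of these data known. Named genes are the members, the list genes past both thresholds (at most 6 a list), and the 3 genes nearest in profile to TXNIP and to ARRDC4. Other list genes, and those nearest to ARRDC3, were named after their values were seen. Protein sequences were not used here. Some list genes are counted but not reported by name here.

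Alternatives were DESeq2 1.42.0, leaving out each library, the replicate number as a block, scaling by RLE or by totals only, testing every gene or those with at least 10 counts in each library, no fold change threshold and other prior counts.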

Additional observations from a re-analysis of the deposited data

How the results depend on the processing

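With library size alone, the log2 fold changes of TXNIP, ARRDC1, ARRDC2, ARRDC3, MLXIP and MLXIPL were 0.68, -0.44, -0.36, 1.50, -0.55 and -0.76, and that of ARRDC4 reversed to -0.0753. That scaling called 489 genes higher and 2553 lower (16.1% higher, against 36.6% with TMM) and 6 list genes lower. Without a fold change threshold, 4574 genes were higher and 4875 lower, and 20 and 15 in the lists. With at least 10 counts in every library 577 were higher and 946 lower. The cause of the shifts with scaling and with this filter was not tested. Leaving out 1 library gave 0.93 to 1.08 for TXNIP, 1.75 to 1.92 for ARRDC3, 0.20 to 0.28 for ARRDC4, -0.29 to -0.17 for MLXIP, -0.56 to -0.32 for MLXIPL, -0.20 to -0.05 for ARRDC1 and -0.10 to 0.0011 for ARRDC2. The 6 higher and 2 lower list genes kept their calls in each of these fits, while 803 to 927 genes were called higher and 1386 to 1621 lower. The replicate numbers gave no evident pairing (correlations of deviations across genes -0.02, 0.0038 and -0.03), and with the replicate block TXNIP was at 0.99 and ARRDC3 at 1.81, 819 genes were called higher and 1437 lower, and no call of a list gene changed. The depth limits MLXIPL most, with 29 to 58 counts per library. Other prior counts kept the direction of all 7 members.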
